A study of Danio rerio with 40 samples.

Results

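The hormone genes pth1a, stc1, stc1l and stc2 were examined in whole zebrafish embryos and larvae that had been kept in calcitriol or in vehicle. They were the rows of the gene count table whose symbol was one of these 4 names, which gave 4 of 14267 genes, each in 1 row. The table places pth1a on chromosome 25, stc1 on chromosome 8, stc1l on chromosome 10 and stc2 on chromosome 14. Poly-A RNA was sequenced in 40 libraries, 5 in each of 8 groups. All animals were Segrest wild type. From 24 h after fertilization, sets of 25 to 30 animals stood either in 300 pM calcitriol (1α,25-dihydroxyvitamin D3, the active form of vitamin D, dissolved in ethanol) or in the ethanol vehicle alone, and medium was renewed every 24 h. Both arms also received 0.003% phenylthiourea, which blocks pigment formation. Whole animals of either arm were collected at 2, 4, 6 and 7 days post fertilization (dpf), so a library holds RNA of all tissues of a pool of animals. The labels describe a further experiment with a 24 h exposure of larvae that were 6 dpf old, but mark none of the libraries as part of it, which leaves uncertain how long the oldest larvae were exposed. Separate clutches for the 5 libraries of a group are not stated, and p-values measure the spread between these libraries only. Some libraries of a group were closer to each other than to the rest, as described with the processing. The p-values and SDs may therefore rest on fewer than 5 independent units.

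Parathyroid hormone and the stanniocalcins are secreted regulators of calcium and phosphate. Parathyroid hormone acts through class B G protein-coupled receptors and raises blood calcium. Zebrafish carry the paralogs pth1a and pth1b. Stanniocalcin was found in bony fish, where the corpuscles of Stannius, small glands on the kidney tubules, release it when calcium is high and where it slows calcium uptake by the ionocytes of skin and gill. In zebrafish the hormone of the corpuscles is the product of stc1l, and stc1 and stc2 encode related proteins. Stanniocalcins also bind and inhibit pappalysins, proteases that cut insulin-like growth factor binding proteins and so free the growth factors, and in zebrafish Igfbp5a is a substrate of such a protease in ionocytes. In mammals calcitriol acts on the parathyroid gland to lower transcription of parathyroid hormone.

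Total counts per library ranged from 67235165 to 214502251. Every group held 1 shallow library, of at most 81298182 counts where the other 4 had at least 106850887. The shallow one is replicate 1 of each vehicle group and replicate 5 of each calcitriol group. Between 13538 and 13931 genes had counts in a library. Of 20 marker genes for 7 tissues of a larva, 19 were in the table and all 19 had counts in every library. The gene cyp24a1 (chromosome 6), a gene induced through the vitamin D receptor whose product breaks down calcitriol, served as a check of the treatment. Its log2 fold change between calcitriol and vehicle was 2.76 ± 0.33 (SE) at 2 dpf, 2.85 ± 0.40 at 4 dpf, 2.99 ± 0.31 at 6 dpf and 2.53 ± 0.18 at 7 dpf. In every age group all 5 calcitriol libraries lay above all 5 vehicle libraries. The adjusted p-values were 0.0281, 0.0981, 0.000159 and 3.79e-06 in the same order (edgeR, Benjamini-Hochberg over all genes tested). At 2 dpf the call was lost in 9 of the 10 fits that left out 1 library, with adjusted p-values up to 0.158. At 4 dpf 6 of 20 alternatives passed, among them DESeq2 (1.43e-06) and the block by exon-table replicate numbers (0.00411).

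In vehicle larvae stc2 and stc1l climbed with age and the RNA of pth1a fell, while in calcitriol the rise of stc2 and stc1l was not seen and pth1a stayed above vehicle from 6 dpf. Levels of stc1 rose in vehicle between 2 and 4 dpf and did not separate the arms at any age. The levels below are CPM, reads of a gene relative to the total of its library after scaling over all 40 libraries, and are listed for replicates 1 to 5 of a group in that order. They are not corrected for transcript length and are compared within a gene only. RNA came from whole animals, so fewer cells that make a transcript and less transcript per cell cannot be told apart.

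**Figure D1:**
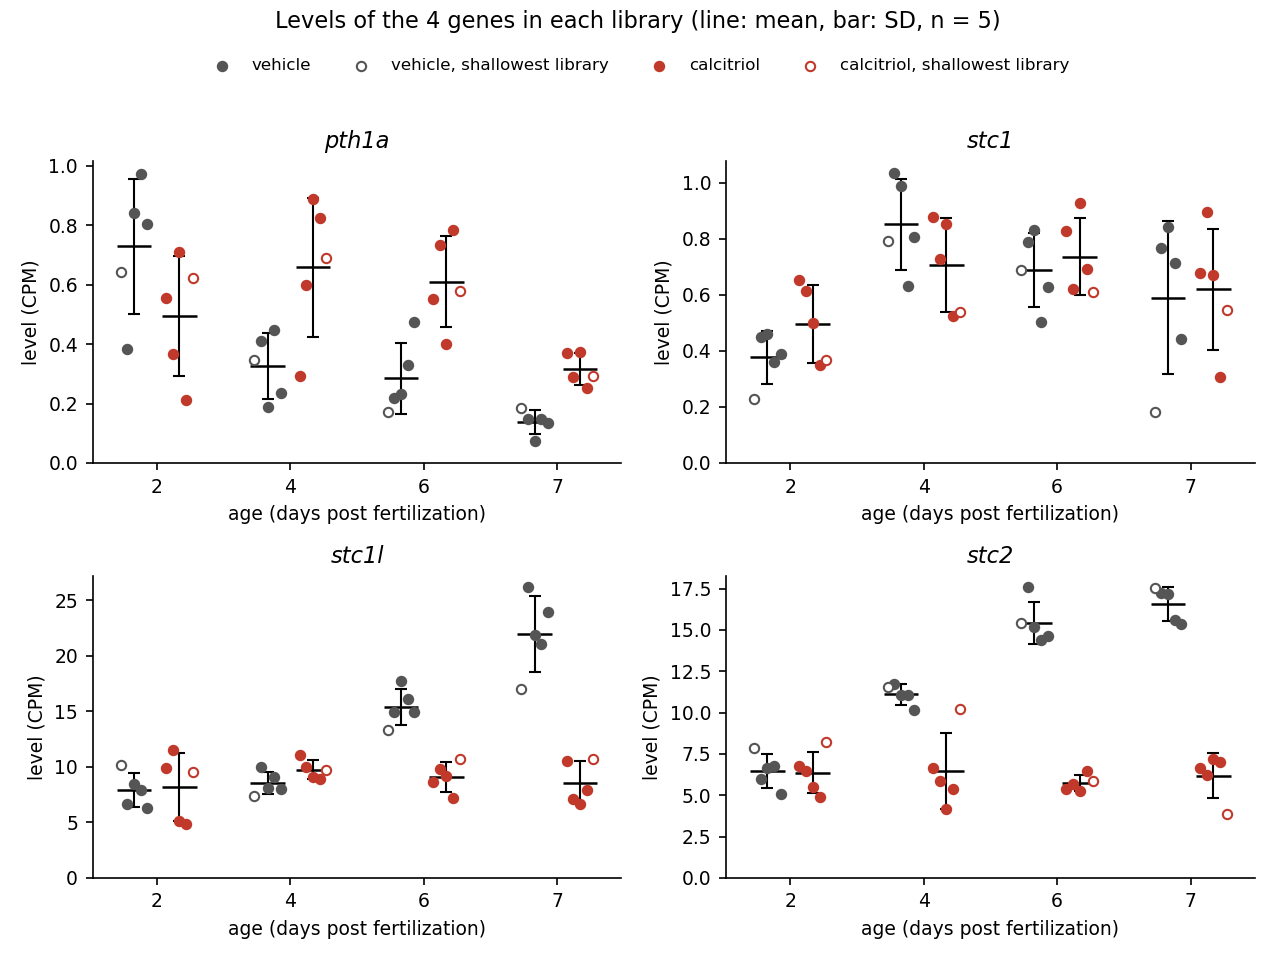
Levels of pth1a, stc1, stc1l and stc2 in CPM (vertical axes, each from 0) against age in days post fertilization, for vehicle (grey) and calcitriol (red). Each point is 1 library, open points are the shallowest library of a group, horizontal lines are means and bars are SDs of 5 libraries. The stc2 points of calcitriol stay between 3.83 and 10.2 CPM at all ages while those of vehicle reach 17.5 CPM at 7 dpf.

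The gene stc2, whose human homolog encodes an inhibitor of the pappalysin PAPP-A, climbed in vehicle and was lower in calcitriol at 6 and 7 dpf. In vehicle at 2 dpf the 5 libraries held 7.84, 5.98, 6.62, 6.74 and 5.10 CPM. At 4 dpf they held 11.6, 11.7, 11.0, 11.1 and 10.1 CPM. All 5 libraries at 4 dpf lay above all 5 at 2 dpf. At 6 dpf vehicle levels were 15.4, 17.6, 15.2, 14.4 and 14.6 CPM. At 7 dpf they were 17.5, 17.2, 17.2, 15.6 and 15.4 CPM. The vehicle groups at 4 and 6 dpf did not overlap, and those at 6 and 7 dpf did. The means ± SD of the 4 vehicle groups were 6.46 ± 1.01, 11.1 ± 0.617, 15.4 ± 1.27 and 16.6 ± 1.02 CPM (n = 5 each).

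Under calcitriol no such climb was seen. At 2 dpf stc2 stood at 6.79, 6.44, 5.52, 4.90 and 8.19 CPM in calcitriol, a range that spanned that of vehicle. At 4 dpf the calcitriol libraries held 6.65, 5.83, 4.18, 5.4 and 10.2 CPM. Of these 5 libraries, 4 (all but the shallow replicate 5) lay below every vehicle library of that age. At 6 dpf the levels were 5.4, 5.70, 5.24, 6.44 and 5.88 CPM. At 7 dpf they were 6.65, 6.25, 7.20, 6.98 and 3.83 CPM. At both of these ages the highest calcitriol library was below the lowest vehicle library. The calcitriol means ± SD were 6.37 ± 1.27, 6.46 ± 2.29, 5.73 ± 0.467 and 6.18 ± 1.36 CPM from 2 to 7 dpf, and the range of each of these groups overlapped that of vehicle at 2 dpf. In the order of the 8 group means the only gap between neighbours lay between vehicle at 6 and vehicle at 4 dpf.

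The gene stc1l, which encodes the corpuscle hormone, did not differ between 2 and 4 dpf in vehicle beyond the spread of its libraries and rose afterwards. Vehicle levels at 2 dpf were 10.1, 6.63, 8.49, 7.94 and 6.27 CPM. At 4 dpf they were 7.40, 9.95, 8.13, 9.12 and 8.01 CPM. These groups overlapped. At 6 dpf vehicle levels were 13.3, 14.9, 17.7, 16.1 and 14.9 CPM. At 7 dpf they were 17, 26.1, 21.8, 21.0 and 23.9 CPM. All vehicle libraries at 6 dpf lay above all at 4 dpf, and the shallow replicate 1 at 7 dpf was the only one of its group inside the range of 6 dpf. The vehicle means ± SD were 7.90 ± 1.55, 8.52 ± 1.01, 15.4 ± 1.64 and 22.0 ± 3.44 CPM (n = 5 each).

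In calcitriol the stc1l levels were 9.90, 11.5, 5.08, 4.86 and 9.49 CPM at 2 dpf, the widest relative spread among the stc1l groups. At 4 dpf they were 11.0, 9.94, 9.05, 8.87 and 9.75 CPM. At 6 dpf they were 8.59, 9.75, 9.20, 7.17 and 10.7 CPM. At 2 and 4 dpf the arms overlapped, and at 6 dpf no calcitriol library reached the vehicle range. At 7 dpf the calcitriol libraries held 10.5, 7.10, 6.62, 7.90 and 10.7 CPM, again all below the vehicle libraries. The calcitriol means ± SD were 8.17 ± 3.02, 9.73 ± 0.859, 9.09 ± 1.33 and 8.57 ± 1.93 CPM. In the order of the 8 group means of stc1l the ranges of neighbouring groups overlapped everywhere except between vehicle at 6 dpf and calcitriol at 4 dpf, and vehicle at 7 and 6 dpf stood above that gap.

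The gene pth1a, which encodes a parathyroid hormone, was counted at low depth, with 11 to 149 reads in a library. In vehicle at 2 dpf its levels were 0.642, 0.384, 0.840, 0.972 and 0.805 CPM. At 4 dpf they were 0.348, 0.411, 0.189, 0.447 and 0.235 CPM. At 6 dpf they were 0.172, 0.218, 0.232, 0.330 and 0.474 CPM. Neighbouring ages overlapped in each case. At 7 dpf vehicle levels were 0.184, 0.149, 0.0730, 0.148 and 0.135 CPM. The vehicle means ± SD went from 0.729 ± 0.226 through 0.326 ± 0.111 and 0.285 ± 0.120 to 0.138 ± 0.0404 CPM (n = 5 each).

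In calcitriol at 2 dpf pth1a stood at 0.555, 0.366, 0.711, 0.212 and 0.623 CPM. At 4 dpf it stood at 0.291, 0.597, 0.888, 0.826 and 0.691 CPM. At both ages the arms overlapped, at 4 dpf through replicate 1 of calcitriol. At 6 dpf the calcitriol levels were 0.551, 0.734, 0.400, 0.784 and 0.580 CPM. Replicate 3 of calcitriol lay below replicate 5 of vehicle at that age, and the other 4 calcitriol libraries lay above all vehicle libraries. At 7 dpf the calcitriol levels were 0.371, 0.288, 0.375, 0.252 and 0.293 CPM, each above the highest vehicle value. The calcitriol means ± SD were 0.493 ± 0.202, 0.659 ± 0.235, 0.610 ± 0.153 and 0.316 ± 0.0544 CPM. In the order of the 8 group means every neighbouring pair overlapped, with vehicle at 2 dpf highest and vehicle at 7 dpf lowest.

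The gene stc1, a homolog of mammalian stanniocalcin 1, had 13 to 227 reads in a library. At 2 dpf its levels were 0.227, 0.450, 0.462, 0.359 and 0.387 CPM in vehicle and 0.654, 0.614, 0.498, 0.350 and 0.366 CPM in calcitriol. At 4 dpf they were 0.792, 1.04, 0.989, 0.633 and 0.807 CPM in vehicle and 0.879, 0.730, 0.852, 0.525 and 0.540 CPM in calcitriol. In vehicle all libraries at 4 dpf lay above all at 2 dpf. At 6 dpf the ranges were 0.503 to 0.832 CPM in vehicle and 0.609 to 0.927 CPM in calcitriol, and at 7 dpf 0.184 to 0.843 and 0.307 to 0.897 CPM. The arms overlapped at all 4 ages, and the lowest value at 7 dpf came from the shallow vehicle library. All neighbours in the order of its 8 group means overlapped, with vehicle at 4 dpf highest (0.852 ± 0.163 CPM) and vehicle at 2 dpf lowest (0.377 ± 0.0943 CPM).

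Steps between neighbouring ages within an arm show how the genes change during normal development and whether the treated animals follow. From 2 to 4 dpf in vehicle, stc2 (log2 fold change 0.78 ± 0.12, edgeR adjusted p = 0.000120) and stc1 (1.16 ± 0.24, adjusted p = 0.00120) rose and pth1a fell (-1.17 ± 0.32, adjusted p = 0.00670). These are 3 of 4 genes at a step where 62.2% of all genes tested passed, 32.1% higher and 30.2% lower. The groups did not overlap for stc2 and stc1, as for 47.7% of all genes. For stc1l the change was 0.11 ± 0.14 (adjusted p = 0.528). From 4 to 6 dpf stc1l (0.85 ± 0.11, adjusted p = 0.000168) and stc2 (0.48 ± 0.08, adjusted p = 0.00128) rose, 2 of 4 genes where 35.9% of all genes passed, and neither overlapped between the ages, as for 23.6% of all genes. From 6 to 7 dpf stc1l rose further (0.54 ± 0.11, adjusted p = 0.0100), 1 of 4 where 12% of all genes passed, and it did not pass in a joint fit of all 40 libraries (adjusted p = 0.0611). The fall of pth1a at that step was -1.07 ± 0.33 with adjusted p = 0.0565. Libraries of the same replicate number shared deviations across these ages, but the same number was the best match for only 2 of 5 libraries. The numbers are thus not shown to mark matched pairs. With the number as a block in edgeR pth1a passed (-1.06, adjusted p = 0.0296). Adjusted p-values of this step for pth1a ranged from 0.0148 to 0.136 over 17 alternatives, 7 of which passed. The block also raised the genes called at this step from 1618 to 4404.

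In calcitriol, 0 of the 4 genes passed from 2 to 4 dpf, where 60.7% of all genes did, and 0 of 4 from 4 to 6 dpf, where 37.3% did. At each of these steps 0 of the 4 genes had an unadjusted p under 0.05 in edgeR, and DESeq2 called 0 as well. The log2 changes of stc2 were 0.02 ± 0.22 and -0.18 ± 0.20 at these steps, and those of stc1l 0.26 ± 0.22 and -0.10 ± 0.12. From 6 to 7 dpf 1 of the 4 genes passed, pth1a, which fell (-0.92 ± 0.24, adjusted p = 0.0374) where 7.74% of all genes passed. Its calcitriol groups at 6 and 7 dpf did not overlap, which held for 7.83% of all genes. This call was lost in 8 of the 10 fits that left out 1 library, with adjusted p-values of 0.0508 to 0.110, and remained with the replicate block, which raised the genes called from 1045 to 3256. Without the shallow libraries stc2 rose at this step (0.29, adjusted p = 0.0395) and it did not pass with them (0.14 ± 0.15, adjusted p = 0.609). A step that passes in vehicle and not in calcitriol is not by itself a difference between the arms. The difference between the arms at each age, and its change with age, were tested separately.

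Calcitriol against vehicle at the same age gives the response of each gene to the hormone. At 2 dpf 0 of the 4 genes passed, where 0.00757% of all genes did, which is cyp24a1 alone. The arms overlapped for all 4, as for all but 0.242% of genes. The count at an unadjusted p under 0.05 was also 0 of 4, and DESeq2 called 0 of 4. The log2 fold changes were -0.57 ± 0.34 for pth1a, 0.39 ± 0.27 for stc1, 0.05 ± 0.24 for stc1l and -0.02 ± 0.16 for stc2, with adjusted p = 1.00 for each (edgeR).

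At 4 dpf 0 of the 4 genes passed in edgeR, where 0% of all genes did, and 2 of the 4, stc2 and pth1a, had an unadjusted p under 0.05, as did 924 of 13410 genes. The arms overlapped for all 4 genes and were apart for 1.76% of all genes. The change of stc2 was -0.77 ± 0.20 (adjusted p = 0.339). DESeq2 called it (-0.77, adjusted p = 0.0276) among 103 genes, and so did a fit blocked by the replicate numbers of the exon table (-0.84, adjusted p = 0.0108), among 1255 genes. It also passed without the shallow libraries (-0.98, adjusted p = 0.0441), without calcitriol replicate 5 alone (-0.999, adjusted p = 0.0272) and in a joint fit of all 40 libraries (-0.78, adjusted p = 0.0162). Over 19 alternatives its adjusted p ranged from 0.0108 to 0.745 and its sign was negative in all 19. The change of pth1a was 1.01 ± 0.34 (adjusted p = 0.544), with 0.0806 as the lowest adjusted p of 18 alternatives. For stc1l it was 0.20 ± 0.11 (adjusted p = 0.755) and for stc1 -0.26 ± 0.22 (adjusted p = 0.902).

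At 6 dpf stc2 and stc1l were lower and pth1a higher in calcitriol than in vehicle. These are 3 of 4 genes where 10.7% of all genes passed, 4.37% higher and 6.32% lower. The level of stc2 in calcitriol was 2.67-fold lower than in vehicle (log2 fold change -1.41 ± 0.09, adjusted p = 1.55e-05), with the smallest p of the 13505 genes tested. The level of stc1l was 1.68-fold lower (-0.75 ± 0.11, adjusted p = 0.00165). For both genes the arms did not overlap, which held for 9.84% of all genes. The level of pth1a was 2.12-fold higher (1.08 ± 0.29, adjusted p = 0.0318) with overlapping arms. That call was lost without vehicle replicate 2 (0.0807), 3 (0.0838) or 4 (0.0631) or without calcitriol replicate 1 (0.0626), 2 (0.0778) or 4 (0.0906), while the fold change stayed between 0.96 and 1.34 on the log2 scale over 18 alternatives. The change of stc1 was 0.12 ± 0.19 (adjusted p = 0.765). The block by the numbers of the exon table raised the genes called from 1444 to 3457 and called the same 3 members.

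At 7 dpf the same 3 genes passed in the same directions, where 28.8% of all genes did, 14.6% higher and 14.2% lower. The level of stc2 was 2.66-fold lower in calcitriol (-1.41 ± 0.15, adjusted p = 4.99e-05) and that of stc1l 2.55-fold lower (-1.35 ± 0.16, adjusted p = 0.000119). The level of pth1a was 2.35-fold higher (1.23 ± 0.28, adjusted p = 0.00696). For these 3 genes the arms did not overlap, as for 18.1% of all genes. The change of stc1 was 0.05 ± 0.37 (adjusted p = 0.930). The calls of stc2 and stc1l at 6 and 7 dpf held in all 19 alternatives for stc2 and all 20 for stc1l at each age. The call of pth1a at 7 dpf held in all 18, with a largest adjusted p of 0.0417. Leaving out scaling factors moved the median of all genes to 0.135 (6 dpf) and 0.178 (7 dpf) on the log2 scale, and the 3 genes kept their direction and their call there.

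**Figure D2:**
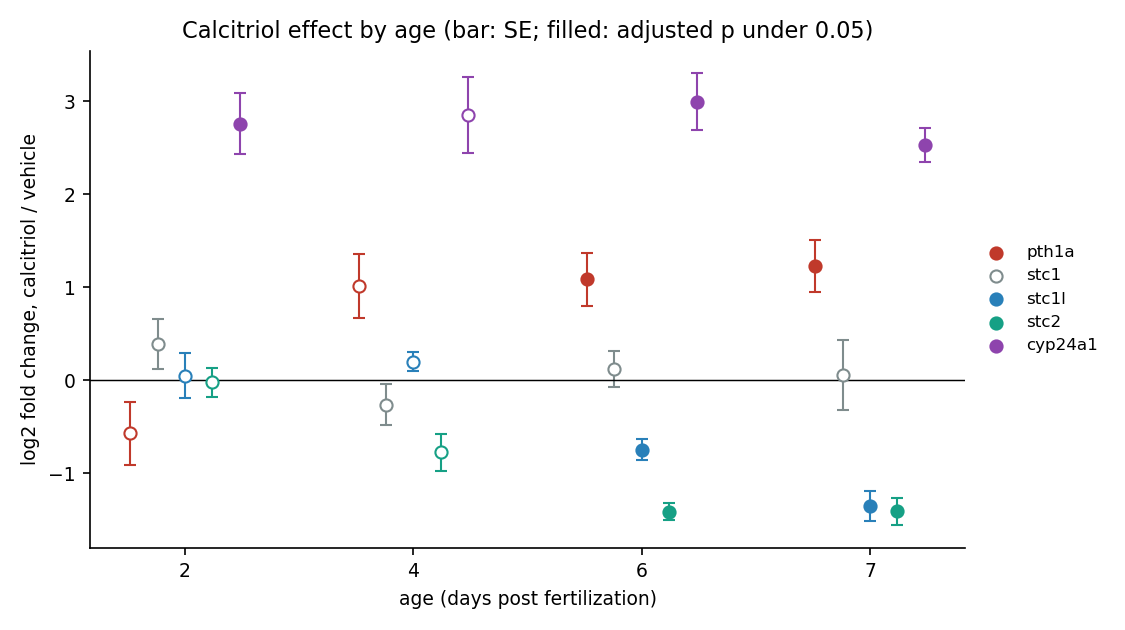
Log2 fold change of calcitriol over vehicle (vertical axis) at each age in days post fertilization (horizontal axis, ages evenly spaced) for the 4 genes and for cyp24a1, with SE bars; filled points have an edgeR adjusted p under 0.05. The points of stc2 go from -0.02 at 2 dpf to -1.41 at 6 and 7 dpf, those of stc1l reach -1.35 at 7 dpf, and those of pth1a go from -0.57 to 1.23.

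Whether the response itself differed between ages was tested in 1 model of all 40 libraries. As labelled, exposure started at the same age in every group, so age and length of exposure cannot be told apart. The joint test passed for stc2 (adjusted p = 5.26e-05), stc1l (adjusted p = 7.27e-05) and pth1a (adjusted p = 0.0157), 3 of 4 genes where 7.79% of all genes passed, and not for stc1 (adjusted p = 0.843) or cyp24a1 (adjusted p = 1.00). The joint call of pth1a held in 46 of 47 alternatives. It was lost with a block by gene-table replicate numbers (adjusted p = 0.0659), which do not pair the arms. For stc2 the response at 6 dpf was lower than that at 2 dpf by -1.41 ± 0.23 on the log2 scale (adjusted p = 0.000281), a difference that passed for 2.43% of all genes. At 7 dpf the gap to 2 dpf was -1.40 ± 0.23 (adjusted p = 5.04e-05), where 12.1% of all genes passed. Between 6 and 7 dpf the response of stc2 differed by 0.01 ± 0.22 (adjusted p = 0.999). Its differences from 4 dpf were -0.65 ± 0.22 at 6 dpf (adjusted p = 0.342) and -0.64 ± 0.22 at 7 dpf (adjusted p = 0.0822). For stc1l the response at 7 dpf was lower than at 2 dpf (-1.41 ± 0.25, adjusted p = 0.000179) and than at 4 dpf (-1.55 ± 0.25, adjusted p = 0.000145), the latter where 6.69% of all genes passed. Its difference between 6 and 2 dpf was -0.81 ± 0.25 (adjusted p = 0.0797). For pth1a the response was higher at 6 dpf than at 2 dpf (1.64 ± 0.45, adjusted p = 0.0364) and higher at 7 dpf than at 2 dpf (1.80 ± 0.47, adjusted p = 0.00896). Its differences from 4 dpf were 0.06 ± 0.45 at 6 dpf and 0.22 ± 0.47 at 7 dpf (adjusted p = 0.869 at 7 dpf), and neither passed. Between 4 and 2 dpf 0% of all genes passed, and the differences were 1.58 ± 0.45 for pth1a and -0.76 ± 0.22 for stc2 (adjusted p = 1.00 for each), 2 of the 4 genes at an unadjusted p under 0.05 in edgeR. The share of all genes at that unadjusted threshold is not given, so the 2 of 4 cannot be set against all genes.

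The deposited exon table numbers the calcitriol libraries differently from the gene table. Its numbers, unlike those of the gene table, went with shared deviations of vehicle and calcitriol libraries in 5 of 5 pairs at 2, 4 and 6 dpf and in 4 of 5 at 7 dpf. The library of the same number was the closest match for 3, 2, 3 and 4 of 5 vehicle libraries at 2, 4, 6 and 7 dpf. The numbers are thus not shown to mark matched pairs. Ratios were also taken within the 5 pairs that share an exon-table number at each age. For stc2 the calcitriol library was lower in 5 of 5 pairs at 4, 6 and 7 dpf, with log2 ratios of -1.40 to -0.18, -1.70 to -1.18 and -2.19 to -1.11. At 2 dpf it was lower in 3 of 5. For stc1l it was lower in 5 of 5 pairs at 6 dpf (-1.06 to -0.31) and at 7 dpf (-1.67 to -0.66), and higher in 4 of 5 at 4 dpf. For pth1a it was higher in 5 of 5 pairs at 6 dpf (0.28 to 1.76) and at 7 dpf (0.67 to 1.98), in 4 of 5 at 4 dpf and in 1 of 5 at 2 dpf. Pairs of stc1 went both ways at every age. For stc2 and stc1l at 6 and 7 dpf and for pth1a at 7 dpf the arms did not overlap. Any pairing gives 5 of 5 there, so these counts add nothing to the ranges. Of the 5 of 5 counts, those of stc2 at 4 dpf and pth1a at 6 dpf depend on the pairing, but only weakly. For stc2 only calcitriol replicate 5 (10.2 CPM) and vehicle replicate 5 (10.1 CPM) were out of order. For pth1a only calcitriol replicate 3 (0.400 CPM) and vehicle replicate 5 (0.474 CPM) were. Any pairing that does not join those libraries gives 5 of 5, so these counts also add little to the ranges. The share of all genes with 5 of 5 pairs was not computed.

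**Figure D3:**
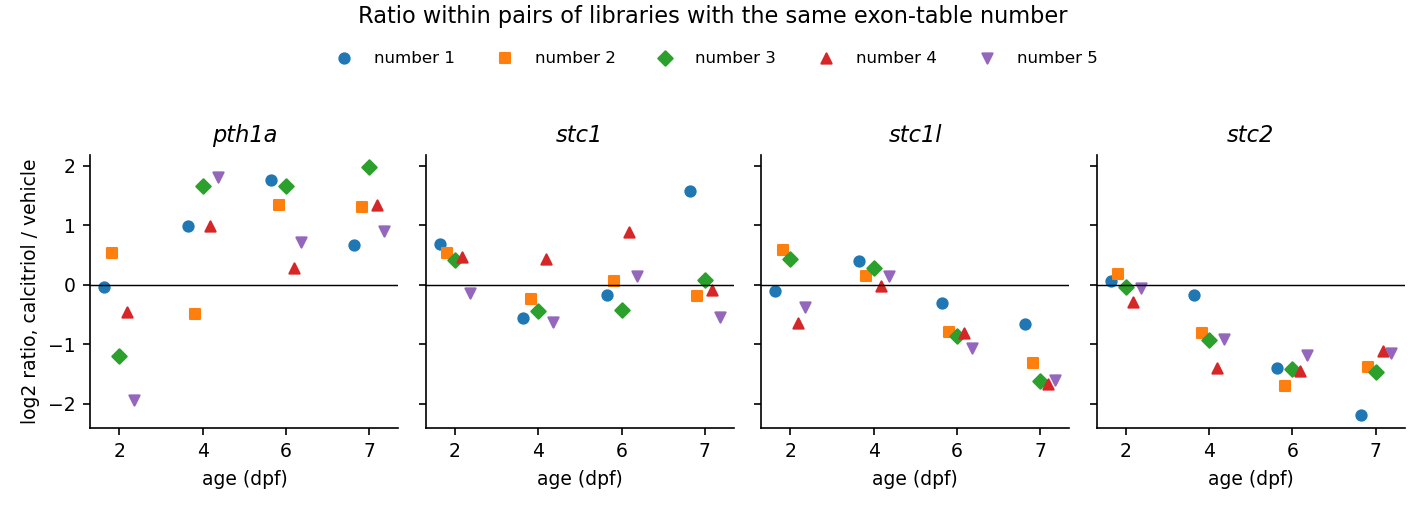
Log2 ratio of calcitriol over vehicle (vertical axis) within each of the 5 pairs of libraries that share a number in the exon table, by age in days post fertilization, 1 panel per gene; each symbol is 1 pair and the line marks equal levels. All 5 pairs lie below the line for stc2 at 4, 6 and 7 dpf and for stc1l at 6 and 7 dpf, and above it for pth1a at 6 and 7 dpf. Where the arms do not overlap, every pairing gives this result.

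Reads on single exons were available for stc1l and stc1, each with 1 exon named in the exon table. That of stc1l, 213 bases long, took 16.8% to 26.2% of the reads of the gene in a library (median 20.0%). That of stc1 took 0 to 17 reads, with none in 13 of 40 libraries. In the 8 shallow libraries it had 0 of 294 reads of the gene, which allows a share of up to 1.02% by the limit of 3 counts and 1.25% by the exact 95% interval, against 88 of 2107 reads (4.18%, exact 95% interval 3.36% to 5.12%) in the 16 libraries with exon-table numbers 2 and 3 and 51 of 1404 (3.63%, 2.72% to 4.75%) in the 16 with numbers 4 and 5. The limit and the intervals cover counting error only. In the fits on exon reads the changes of stc1l at 6 and 7 dpf kept their sign and their call.

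Tissue markers moved in the same comparisons. The summed level of the 2 liver markers was 1232 to 1897 CPM in vehicle and 175 to 728 CPM in calcitriol at 6 dpf, and 729 to 1400 against 133 to 370 CPM at 7 dpf. The 3 markers of exocrine pancreas summed to 4451 to 7425 against 2239 to 4193 CPM at 6 dpf and to 9190 to 11280 against 2725 to 3961 CPM at 7 dpf. The 3 skeletal muscle markers summed to 22206 to 26105 against 17543 to 19980 CPM at 6 dpf and to 23260 to 26983 against 15990 to 20481 CPM at 7 dpf. The 3 ionocyte markers, foxi3a, foxi3b and trpv6, summed to 23.2 to 28.9 against 18.5 to 23.0 CPM at 6 dpf and to 22.9 to 25.3 against 18.3 to 21.3 CPM at 7 dpf. Of these 3 genes only foxi3b passed singly in edgeR at these ages, so the sum does not show that all 3 fell. In each of these sums the arms did not overlap at 6 or 7 dpf, which held for 9.84% and 18.1% of single genes at these ages. Those of neurons and lens overlapped at both ages, and that of red blood cells was 252 to 414 against 423 to 741 CPM at 7 dpf. The part of tissue composition in the levels of stc2, stc1l and pth1a was not tested.

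Other genes of the parathyroid hormone and stanniocalcin pathways were read from 4 lists. For these genes, rose and fell mean higher and lower in calcitriol than in vehicle of the same age. At 2 dpf 0 genes of these lists passed, also at an unadjusted p under 0.05 and in DESeq2. At 4 dpf 0 passed in edgeR and in DESeq2, and 1 each of the parathyroid hormone, calcium and growth factor lists and 0 of the corpuscle list had an unadjusted p under 0.05. The block by exon-table numbers called 1 gene of the 4 lists at 4 dpf, a gene of the growth factor list that was lower. It called 555 of 13410 genes lower at that age. Of ligands and receptors of the parathyroid hormone family, 7 of 12 were in the table and 6 were tested. At 6 dpf 1 of the 6 fell, where 6.32% of all genes did, and 0 rose, with a median log2 fold change of -0.12 against 0.02 for all genes. At 7 dpf 2 fell, where 14.2% of all genes did, and 0 rose, with a median of -0.33 against 0.01. The gene pth2, which encodes the neural peptide ligand of the receptor Pth2r, went from 3.67 ± 0.583 CPM in vehicle to 2.53 ± 0.365 CPM in calcitriol at 6 dpf (-0.52 ± 0.14, adjusted p = 0.0308). At 7 dpf it went from 3.60 ± 0.900 to 1.13 ± 0.514 CPM (-1.67 ± 0.30, adjusted p = 0.00203), a difference opposite in direction to that of pth1a. The receptor gene pth1rb fell at 7 dpf (-0.56 ± 0.16, adjusted p = 0.0195), a call lost without scaling factors (0.0520), with the block by gene-table numbers (0.0614) and in 2 of the 10 fits that left out 1 library. The paralog pth1b had changes of -0.34 ± 0.18 and -0.25 ± 0.21 at 6 and 7 dpf (adjusted p = 0.291 and 0.396), and the receptor gene pth1ra 0.02 ± 0.24 and -0.41 ± 0.20 (adjusted p = 0.982 and 0.153). The call of pth2 at 6 dpf was lost without scaling factors (0.0792), in the joint fit of all 40 libraries (0.157) and with the block by gene-table numbers. It was also lost in 7 of the 10 fits that left out 1 library. Its call at 7 dpf held in all 19 alternatives.

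Of genes for calcium sensing, calcitonin signalling and calcium uptake by ionocytes, 10 of 13 were tested. At 6 dpf 2 of them fell, where 6.32% of all genes did, and at 7 dpf 4, where 14.2% did, with 0 rising and medians of -0.14 and -0.30 against 0.02 and 0.01 for all genes. The gene foxi3b, a transcription factor that specifies ionocytes of the skin, went from 10.6 ± 0.926 to 7.66 ± 1.02 CPM at 6 dpf (-0.46 ± 0.11, adjusted p = 0.0178). At 7 dpf it went from 9.70 ± 0.602 to 6.4 ± 0.753 CPM (-0.59 ± 0.10, adjusted p = 0.00132). It is also 1 of the ionocyte markers above. The sodium-calcium exchanger gene slc8a1b fell at 6 dpf (-0.31 ± 0.08, adjusted p = 0.030) and at 7 dpf (-0.46 ± 0.12, adjusted p = 0.0136). Its call at 6 dpf was lost in 8 of the 10 fits that left out 1 library (adjusted p up to 0.0769). At 7 dpf calcrla, a receptor of the calcitonin receptor family (-0.42 ± 0.12, adjusted p = 0.0210), and the calcium pump gene atp2b2 (-0.44 ± 0.13, adjusted p = 0.0244) fell as well. Of the 10 fits that left out 1 library, 7 kept the call of calcrla and 8 that of atp2b2. The call of foxi3b at 6 dpf held in 9 of 10 such fits. The epithelial calcium channel gene trpv6, named after its values were seen, had changes of -0.15 ± 0.11 and -0.18 ± 0.13 (adjusted p = 0.430 and 0.340). The block by exon-table numbers called 4 of the 10 genes lower at 6 dpf, where it called 1710 of 13505 genes lower. At 7 dpf it called 5 lower, where it called 2413 of 13434. The fits without the shallow libraries also called 4 and 5 lower, where 1894 of 13515 and 3778 of 13463 genes were. Without scaling factors edgeR called 0 at 6 dpf, where 609 of 13505 genes were lower. At an unadjusted p under 0.05 there were 2, as for 4511 of all genes. At 7 dpf it called 1, foxi3b (-0.42), where 1150 of 13434 genes were lower. The block by gene-table numbers called 0 and 1 lower at 6 and 7 dpf, where 630 of 13505 and 1323 of 13434 genes were. The joint fit of all 40 libraries called 1 lower at 6 dpf, where 820 of 13650 genes were. At 7 dpf slc8a1b (-0.29), calcrla (-0.24) and atp2b2 (-0.27) kept their sign without scaling factors and lost their call.

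Of genes of the pappalysin and insulin-like growth factor axis, 8 of 11 were tested, none of them a pappalysin. At 6 and at 7 dpf 2 rose and 1 fell, 3 of 8 genes where 10.7% and 28.8% of all genes passed. The block by exon-table numbers called 3 higher and 2 lower at 6 dpf, where 1747 and 1710 of 13505 genes were. At 7 dpf it called 3 higher and 1 lower, where 2739 and 2413 of 13434 genes were. The growth factor gene igf2b went from 30.9 ± 5.47 CPM in vehicle to 65.2 ± 18.6 CPM in calcitriol at 6 dpf (1.09 ± 0.21, adjusted p = 0.00628). At 7 dpf it went from 31.2 ± 4.60 to 78.9 ± 20.5 CPM (1.34 ± 0.19, adjusted p = 0.000374). Its paralog igf2a rose at 6 dpf (0.62 ± 0.16, adjusted p = 0.0284) and at 7 dpf (0.80 ± 0.15, adjusted p = 0.00297). The gene igfbp5a, which encodes the binding protein cut by the ionocyte pappalysin, went from 101 ± 6.38 to 76.5 ± 7.33 CPM at 6 dpf (-0.39 ± 0.08, adjusted p = 0.00952). At 7 dpf it went from 88.1 ± 4.46 to 55.3 ± 7.43 CPM (-0.66 ± 0.10, adjusted p = 0.000471), with arms that did not overlap, as for 18.1% of all genes. The call of igf2a at 6 dpf was lost in 7 of the 10 fits that left out 1 library and that of igfbp5a at 6 dpf without scaling factors (0.050). At 7 dpf the calls of igf2b, igf2a and igfbp5a held in all 19 alternatives. The gene igf1 had changes of 0.29 ± 0.11 and 0.15 ± 0.13 (adjusted p = 0.116 and 0.417).

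Of genes that mark the corpuscles of Stannius and the distal kidney tubule from which they arise, 9 of 10 were tested. At 6 dpf 0 passed in edgeR, where 10.7% of all genes did. At an unadjusted p under 0.05 there was 1, where 3314 of 13505 genes were. DESeq2 called 1, where it called 2202 of 13505 genes. In each case the gene was emx1 (0.47 ± 0.15, edgeR adjusted p = 0.0730). The block by exon-table numbers called 2 higher at 6 dpf, emx1 (adjusted p = 0.0211) and tbx2b (adjusted p = 0.0337), where it called 1747 of 13505 genes higher. The fit without the shallow libraries also called 2, where 1638 of 13515 genes were higher. At 7 dpf 1 rose, the transcription factor gene gata3 (0.25 ± 0.07, adjusted p = 0.0162), and 1 fell, the transcription factor gene tbx2a (-0.35 ± 0.08, adjusted p = 0.00735). These are 2 of 9 genes where 28.8% of all genes passed, a share below the background. The call of gata3 held in 8 of the 10 fits that left out 1 library, and that of tbx2a in all 10. At 7 dpf the block by exon-table numbers called 3 higher and 1 lower, where 2739 and 2413 of 13434 genes were. Leaving out the shallow libraries gave 5 higher and 1 lower, where 3848 and 3778 of 13463 genes were. The joint fit of all 40 libraries gave 0 higher and 1 lower, where 1979 and 2073 of 13650 genes were. The block by gene-table numbers gave 0 higher and 0 lower at 7 dpf, where 1194 and 1323 of 13434 genes were. The gene tbx2b had changes of 0.19 ± 0.11 and 0.28 ± 0.11 (adjusted p = 0.304 and 0.0749). The median log2 fold change of the list was 0.06 at 6 dpf and 0.11 at 7 dpf, against 0.02 and 0.01 for all genes. Whether these whole-animal levels follow the state of the glands was not tested. Without scaling factors tbx2a did not pass (-0.17, adjusted p = 0.120). In that setting 2 genes of the list rose at 6 dpf and 3 at 7 dpf, where 1735 of 13505 and 4130 of 13434 genes did.

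**Figure D4:**
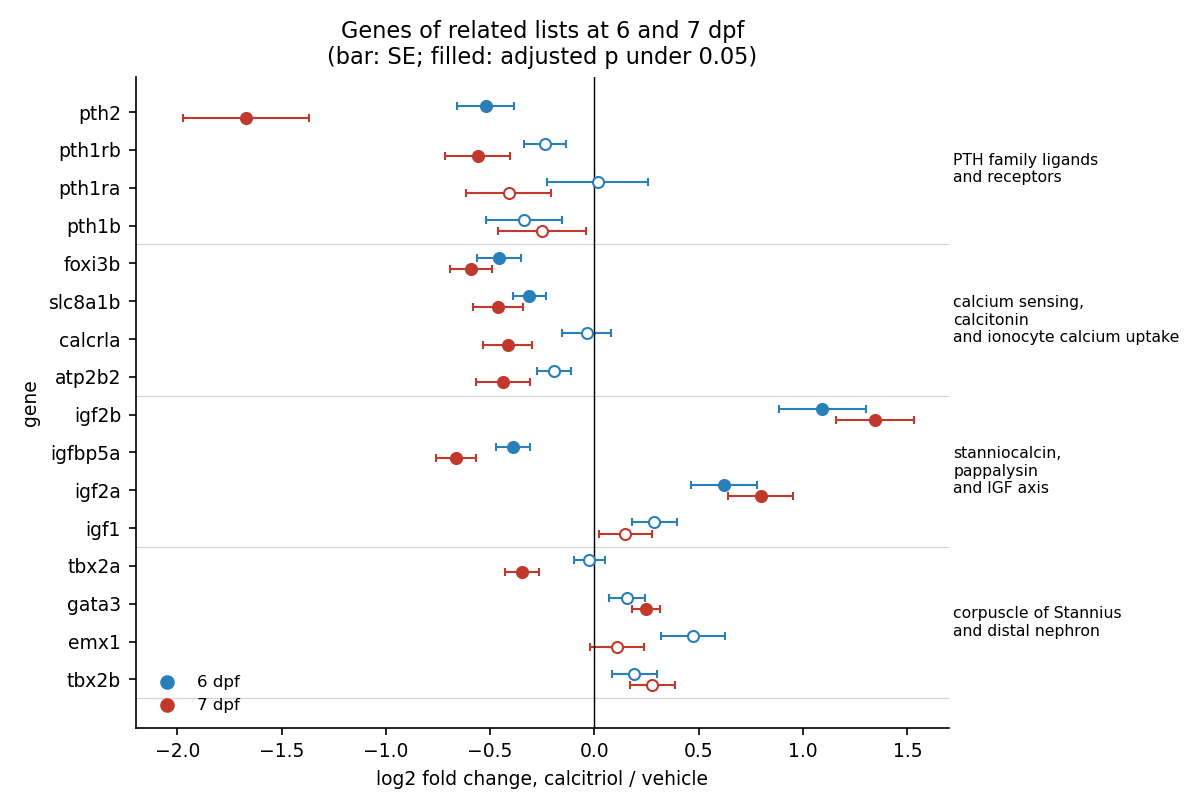
Log2 fold change of calcitriol over vehicle (horizontal axis) with SE bars at 6 dpf (blue) and 7 dpf (red) for the 4 genes with the smallest p of each of the 4 lists, filled where the edgeR adjusted p is under 0.05. The point of pth2 at 7 dpf lies at -1.67, that of igf2b at 1.34, and the genes of the corpuscle list lie between -0.35 and 0.47.

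The genes with courses most like each member over the 40 libraries were found by Pearson's r of log2 CPM, a description in which the libraries share group and depth. Nearest to stc2 were bcat2 (r = 0.88), which encodes an aminotransferase of branched-chain amino acids, gcat (0.86), an enzyme of threonine breakdown, and aldh1l1 (0.86), an enzyme of folate metabolism. With group means removed their r was 0.52, 0.30 and 0.51. Nearest to stc1l were aldh9a1a (0.86, 0.73 with group means removed), an aldehyde dehydrogenase, fbp1a (0.85 and 0.43), an enzyme of gluconeogenesis, and bcat2 (0.84 and 0.40). Nearest to stc1 were abhd12 (0.76 and 0.63), gapdhs (0.73 and 0.56) and lgi2a (0.72 and 0.67). Nearest to pth1a were the transcription factor gene dlx4a (0.74 and 0.09), the retinol dehydrogenase gene rdh10a (0.73 and 0.11) and the growth factor gene bmp2a (0.73 and 0.21). Among the members, stc1l and stc2 had r = 0.73, and 0.21 with group means removed, and pth1a and stc2 had -0.64 and 0.07.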

How the data were processed

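Whole-animal poly-A RNA was read as 51-base reads in 40 zebrafish libraries, 5 in each of 8 groups of age and treatment. The authors deposited 2 tables of raw read counts, 1 per gene (14267 genes) and 1 per exon (194750 exons, 26551 of them named with a gene). Per the submitters' processing notes the tools included CASAVA 1.4 and HTSeq 0.5.3p3; the genome build and aligner are not given in the sources used here. Without a stated strand setting, reads of overlapping antisense genes cannot be told apart.

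Deposited gene counts were fitted over the whole table with edgeR 4.0.16 in R 4.3.3 (filterByExpr, TMM factors, robust quasi-likelihood test), separately for each pair of groups and once over all 40 libraries for differences between ages. P-values were adjusted by Benjamini-Hochberg over all genes tested, with a threshold of 0.05. Errors of log2 fold changes are SE, and levels are CPM with TMM factors over 40 libraries, mean ± SD. The fits were tested on simulated data first. Alternatives were RLE factors, no scaling factors, no filter, a filter of 1 CPM in 5 libraries, DESeq2 1.42.0, replicate blocks, exon reads, leaving out the shallowest or each single library, and 1 fit of all libraries. The members, lists and markers were chosen with earlier results of these data known. Named genes are the 4 members, cyp24a1, up to 4 genes per list with the smallest p in the calcitriol comparisons, and per member the 3 with the highest r.

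The number of a library differs between the tables for calcitriol groups, and libraries were matched by genes with at least 50 counts and equal totals in both (at least 52 genes for the best match, at most 8 for the next). Gene-table numbers went with shared deviations across ages (5 of 5 pairs with r over 0.1, from 0.178 to 0.812) but not between vehicle and calcitriol (at most 2 of 5). Exon-table numbers went with shared deviations of the arms at 2, 4 and 6 dpf (5 of 5 over 0.1, from 0.238 to 0.871) and in 4 of 5 pairs at 7 dpf (lowest 0.0952). The library of the same exon-table number was the best match for 3, 2, 3 and 4 of 5 vehicle libraries at 2, 4, 6 and 7 dpf. Across ages the same gene-table number was the best match for 2 to 4 of 5 libraries. Neither numbering is thus shown to mark matched pairs. Where the numbers went with shared deviations, the blocked value is printed if it changed a call or moved a count of calls by over 1.5 times. Libraries of a group differed beyond counting noise (chi-square over degrees of freedom of 21.0 or more). They also formed closer sets by exon-table number. In calcitriol at 4 dpf the ratio was 42.7 between numbers 2 and 3, 28.3 between 4 and 5, and 127 or more otherwise. The sets were less distinct in vehicle at 6 dpf, with 50.4 between 2 and 3 and 56.6 between 3 and 4. Fits without a block treat the libraries of a group as independent. After the named exons, 8 columns of the exon counts are blank.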

Additional observations from a re-analysis of the deposited data

Results flagged for a closer look

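The responses of 3 of the 4 genes to calcitriol differed between ages in the joint edgeR test, with adjusted p = 7.27e-05 for stc1l, 5.26e-05 for stc2 and 0.0157 for pth1a. Age and length of exposure cannot be told apart in this test. The call of pth1a held in 46 of 47 alternatives and was lost with a block by gene-table replicate numbers (adjusted p = 0.0659). Among pairs of ages, the response of stc2 was lower at 6 than at 2 dpf by -1.41 on the log2 scale and at 7 than at 2 dpf by -1.40. That of stc1l was lower at 7 than at 2 dpf (-1.41) and at 7 than at 4 dpf (-1.55). That of pth1a was higher at 6 than at 2 dpf (1.64) and at 7 than at 2 dpf (1.80).

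The 5 genes in 8 groups gave 40 sets of 5 values, in 2 of which a single library stood apart from the other 4, and chance gives about 1 in 20. Both cases are the same library, the shallow replicate 5 of calcitriol at 7 dpf, where stc2 was 3.83 CPM (a gap of 0.716 of the range of the group) and cyp24a1 was 1087 CPM (0.796), against a critical value of 0.71. The chance rate does not cover a shift shared by the shallow libraries. The shallow library had the lowest cyp24a1 level in each of the 8 groups. In calcitriol at 4 dpf it held 71.6 CPM, where the other 4 had at least 207 CPM. The named exon of stc1 had 0 reads in the 8 shallow libraries. The cause of these differences was not tested. Without the shallow libraries stc2 at 7 dpf was still called lower in calcitriol than in vehicle.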

How the results depend on the processing

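Relative to vehicle, the lower levels of stc2 and stc1l in calcitriol at 6 and 7 dpf kept direction and call in every alternative that tested them. So did the higher level of pth1a at 7 dpf. The vehicle steps of stc2, stc1 and pth1a from 2 to 4 dpf and of stc1l and stc2 from 4 to 6 dpf also kept both. Calls of pth1a at 6 dpf and from 6 to 7 dpf did not hold in every alternative. Its counts were 11 to 149 in a library, and whether they limit these calls was not tested. The filter of 1 CPM leaves pth1a and stc1 untested. Causes of the following changes were not tested. At 4 dpf the genes called went from 0 to 103 with DESeq2, 1255 with the replicate block by exon-table numbers, 18 without the shallow libraries and 27 in 1 fit of all 40 libraries, with 1 of the 4 members, stc2, in each. At 6 dpf they went from 1444 to 2344 without scaling, 2202 with DESeq2, 921 with the block by gene-table numbers, 3457 with that by exon-table numbers and 3532 without the shallow libraries. At 7 dpf they went from 3866 to 2517 with the block by gene-table numbers and 7626 without the shallow libraries. The gene-table numbers do not pair the arms, and in the tests between arms the block by them changed the call of 1 member, the joint test of pth1a (adjusted p = 0.0659). Without scaling 1735 genes were higher and 609 lower at 6 dpf, against 590 and 854, and 4130 and 1150 at 7 dpf, against 1962 and 1904. From 2 to 4 dpf in vehicle 1 member was called under the filter of 1 CPM, with pth1a and stc1 untested, where 7824 of 12284 genes were called. From 6 to 7 dpf in vehicle the genes called went from 1618 to 4404 with the replicate block and 3626 without the shallow libraries, and the members to 2 in both. The members called were also 2 without scaling and with DESeq2, where 1914 and 2336 of 13464 genes were called. In calcitriol 1 member, stc1, was called from 2 to 4 dpf without scaling, where 7858 of 13376 genes were called. From 6 to 7 dpf in calcitriol the genes went from 1045 to 2023 with DESeq2, 3256 with the block, 3410 without the shallow libraries and 1830 in 1 fit, and the members to 0 under the filter and 2 without the shallow libraries. Under the filter 1070 of 12360 genes were called at that step. Genes whose response differed between ages went from 1064 to 1686 without scaling, 3667 with the exon-number block and 3093 without the shallow libraries.

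Leaving out 1 library gave 0 to 1 genes called at 2 dpf, 0 to 9 at 4 dpf (0 to 1 members), 849 to 2310 at 6 dpf (2 to 3 members), 928 to 2683 from 6 to 7 dpf in vehicle (1 to 2 members), 159 to 2755 from 6 to 7 dpf in calcitriol (0 to 1 members) and 832 to 1719 for the difference between ages.

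Signs that reversed belonged to changes that were not called. With the blocks by gene-table and exon-table numbers stc1l at 2 dpf was -0.0203 and -0.0151, and by gene-table numbers stc2 from 2 to 4 dpf in calcitriol was -0.0193. Without scaling stc2 at 2 dpf was 0.00391, calcrla at 6 dpf 0.0796, tbx2a at 6 dpf 0.0923 and stc1 from 4 to 6 dpf in calcitriol -0.0192. Without the shallow libraries pth1ra at 6 dpf was -0.0867, stc1 at 7 dpf -0.126, stc1 from 6 to 7 dpf in vehicle 0.0438, and stc2 in calcitriol -0.0967 from 2 to 4 dpf and 0.0334 from 4 to 6 dpf. Leaving out 1 library gave -0.110 to 0.185 for stc1l and -0.128 to 0.0557 for stc2 at 2 dpf, -0.0910 to 0.0341 for calcrla, -0.0670 to 0.00129 for tbx2a and -0.166 to 0.104 for pth1ra at 6 dpf, -0.154 to 0.225 for stc1 at 7 dpf and -0.327 to 0.0343 for stc1 from 6 to 7 dpf in vehicle. In calcitriol it gave -0.201 to 0.145 for stc2 from 2 to 4 dpf, -0.303 to 0.0493 for stc2, -0.0401 to 0.156 for stc1 and -0.290 to 0.0276 for pth1a from 4 to 6 dpf, and -0.140 to 0.0209 for stc1l from 6 to 7 dpf.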
